A study of Homo sapiens with 4 samples.

Results

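The ratio of ER-RNA to total RNA in hypoxia was examined in HT1080 cells, a human fibrosarcoma line, with 2 of the 4 arrays of the series. One array carried ER-RNA from cells kept for 36 h at 1% oxygen, and the other carried total RNA from cells kept under the same conditions. For each gene the log2 value in total RNA was subtracted from that in ER-RNA, after each array had been centred on its own median over all probe sets. Of 33297 probe sets, 19460 name 1 gene, and these gave values for 18417 genes. The cells were held in low serum before and during the incubation, and the labels name no transgene or other genetic change. ER-RNA was extracted from a fraction made with a commercial ER isolation kit, and the methods describe a short cycloheximide treatment before fractionation, which holds ribosomes on mRNA. The other pair of arrays carried the same 2 RNA preparations from control cells kept for 36 h at 21% oxygen, and it is used here for comparison. Each array was loaded with RNA pooled from 5 experiments, so there is 1 value per fraction and condition, the spread between experiments is unknown and no test or p-value is given.

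Messenger RNAs of secreted, membrane, lysosomal and ER-resident proteins are brought to the ER while they are translated, when the signal recognition particle binds the signal sequence of the nascent chain and delivers the ribosome to the translocon. Transcripts of cytosolic, nuclear and mitochondrial proteins are translated mostly on free ribosomes, although some of them are also found on ER membranes. An ER fraction can therefore be checked by its content of mRNAs for secretory proteins, as well as by marker proteins. Hypoxia reshapes the transcriptome through the HIF transcription factors, which raise genes for glycolysis, glucose uptake, angiogenesis and collagen modification.

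The difference is relative. The median probe set had a log2 value of 7.49 in total RNA against 6.34 in ER-RNA at 1% oxygen, and a gene with equal log2 values on both arrays therefore counts as higher in ER-RNA. No source used here says if the fractions were normalized together. A gene was counted as higher or lower where the difference of its centred log2 values was at least 1 in size, which is 2-fold. On this scale 1692 of 18417 genes (9.19%) were higher in ER-RNA and 1216 (6.60%) were lower, and the median gene lay at 0.06 with quartiles of -0.38 and 0.47. At 4-fold, 180 genes were higher and 49 lower. The values around the threshold were continuous, with RGS2 at 1.0001 and RAB7A at 0.9997 on the upper side and HECTD4 at -1.0006 and THSD4 at -0.9994 on the lower side. Higher calls made up 58.2% of all calls, against 51.5% with centring on probe sets that name 1 gene, 49.9% after quantile normalization of the pair, 45.2% with equal spread of the arrays and 42.9% after a loess correction for level. The balance of higher and lower genes thus turns with the scaling, and the order of gene groups is described here rather than that balance. As a gauge of disagreement between probe sets, 343 genes had a pair of probe sets above the array median, and their differences departed from each other by a median of 0.25, with 90.7% of the pairs apart by less than 1. Both members of a pair were read on the same arrays, so error of arrays, pools or fractionation is not included. As a look at the line's label, 11 of 13 mesenchymal, 4 of 9 epithelial and 2 of 9 leukocyte markers had a mean over the 4 arrays above the array medians. KRT7 and MUC1 were among the epithelial ones and CD68 and SPI1 were the leukocyte ones, and probes of different genes differ in brightness at equal abundance, so these counts only describe the arrays. Bulk RNA was measured, in which fewer cells of a type and less RNA per cell cannot be told apart.

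The genes highest in ER-RNA over total RNA encoded small RNAs, histones and short cytosolic or mitochondrial proteins. Genes are called above the array medians here where the mean of their 4 centred values was above 0, which a gene can pass through a single fraction. At 1% oxygen RNVU1-19 and COX7B lay below the median of the total RNA array. Among the lowest genes, BLID, ERAP1, DNHD1 and NDNF lay below that of the ER-RNA array. RNVU1-19, a variant copy of the U1 spliceosomal RNA, had log2 values of 6.67 (total RNA) and 10.26 (ER-RNA), a centred difference of 4.74 or 26.8-fold. ARHGDIB had 7.61 and 10.02, a difference of 3.56. The cancer-testis antigen gene CSAG1 had 8.94 and 11.19, a difference of 3.40. In each of these genes the ER-RNA array was the brighter one even before centring. Of the histones, core proteins of the nucleosome, H3C2 went from 9.82 in total RNA to 11.99 in ER-RNA, and H2BC3, H2BC4 and H2BC14 had differences of 3.22, 2.92 and 2.87. RPS7, a protein of the small ribosomal subunit, had 9.25 in total RNA against 11.14 in ER-RNA, a difference of 3.04. COX7B, a subunit of cytochrome c oxidase, had 5.99 and 7.84, a difference of 3.0. The remaining genes of the 12 highest were the small nucleolar RNA SNORD58A (3.43), the vault RNA VTRNA1-1 (2.97) and the metallothionein pseudogene MT1P3 (2.81). SNORD58A overlaps the ribosomal protein gene RPL17 in RefSeq, and RPL17 itself had a difference of 2.66. U1 copies, histones, metallothioneins and ribosomal proteins have near-identical copies or pseudogenes in the genome, so the values of single members are uncertain.

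The genes lowest in ER-RNA held several proteins that are themselves made at the ER. SEL1L, the adaptor of the ER-associated degradation ligase, had 10.12 in total RNA against 6.54 in ER-RNA, a centred difference of -2.43, so that total RNA exceeded ER-RNA 5.40-fold. ERAP1, the ER aminopeptidase that trims antigenic peptides, had 9.55 and 5.99, a difference of -2.42. IGF1R, the receptor of insulin-like growth factors, had 10.65 and 7.10, a difference of -2.40. All 3 were expressed well above the median of the total RNA array. The secreted protein gene NDNF and the orphan receptor gene GPRC5A had differences of -2.24 and -2.18. Nuclear and cytosolic proteins were among the 12 lowest too: the chromatin proteins BAZ2A (-2.24) and KDM2A (-2.21), the dynein-related DNHD1 (-2.28), and also ARHGAP35 (-2.26) and DNMBP (-2.20). BLID, an inducer of cell death, had 9.57 in total RNA against 5.61 in ER-RNA and the lowest difference above the array medians, -2.80. MTND2P28, at -2.69, is a nuclear pseudogene of a mitochondrial respiratory subunit, and its probes may also read the mitochondrial transcript.

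**Figure D1:**
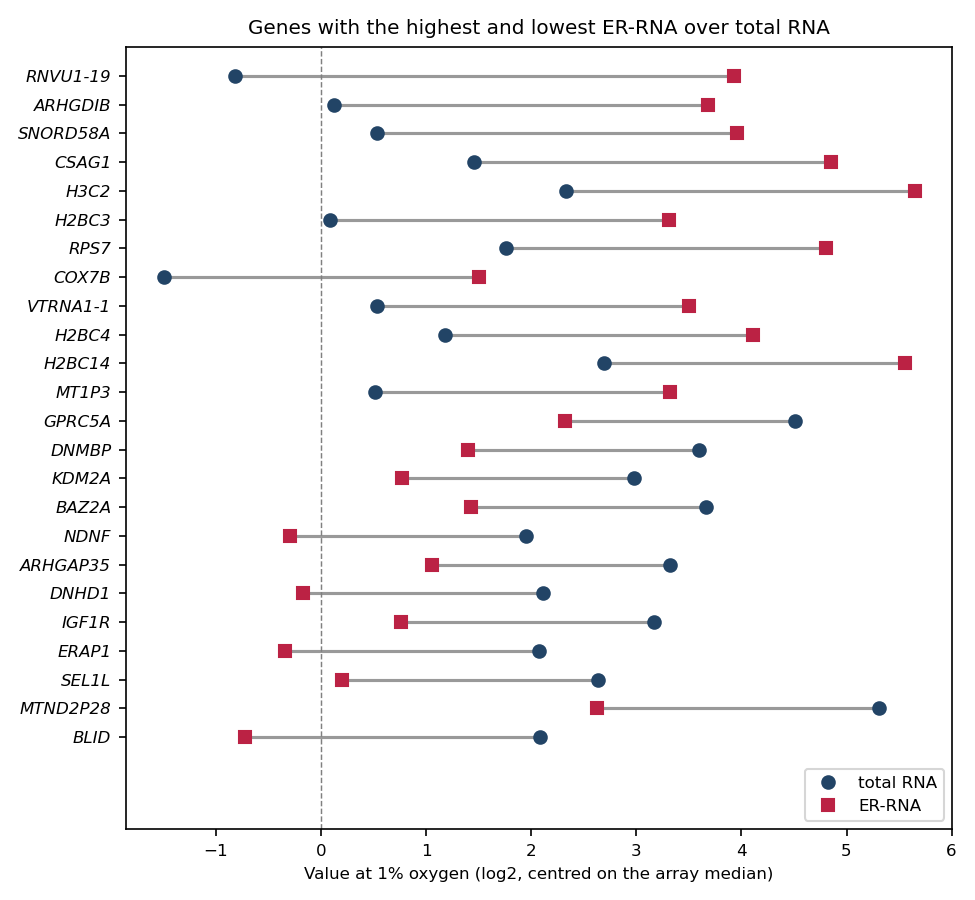
The 12 genes with the highest and the 12 with the lowest ER-RNA over total RNA at 1% oxygen, among genes above the array medians. Circles give total RNA and squares ER-RNA, each as log2 centred on its array's median, with 1 pooled array per point. The line between them is the difference, from 4.74 for RNVU1-19 to -2.80 for BLID.

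Genes of the secretory lists, which include surface receptors, lay low in ER-RNA over total RNA. Over the lists of this class, 313 measured genes had a median difference of -0.58, with 6 higher and 94 (30%) lower. The direction goes against what the label of the fraction would lead one to look for. The study checked the kit fraction by protein markers of the ER and the cytosol, which were not analysed here, and the name ER-RNA is kept. Integrins and surface receptors had a median of -0.79 over 57 genes, of which 24 were lower and 1 was higher. The exception was B2M, the light chain of class I antigen-presenting molecules, with 11.12 in total RNA against 11.10 in ER-RNA and a centred difference of 1.12. Lysosomal proteins had a median of -0.73 over 35 genes, with 12 lower and 1 higher. TPP1, a lysosomal peptidase, had 11.70 in total RNA against 8.47 in ER-RNA (-2.08), whereas NPC2, a lysosomal cholesterol carrier, had 12.27 and 12.44 (1.33). Collagens and matrix proteins had a median of -0.56 over 45 genes, with 16 lower, and ranged from THBS2, a matrix thrombospondin (-2.18), to TGFBI, a matrix adhesion protein (1.24). Secreted proteases and inhibitors had a median of -0.58 over 28 genes, with 8 lower and none higher, and the metalloprotease inhibitor TIMP2 was lowest at -1.54. Golgi enzymes had a median of -0.50 over 52 genes, with 10 lower and none higher, and the galactosyltransferase B4GALT1 was lowest at -1.94. Growth factors and cytokines stood nearer to all genes, at -0.11 over 40 genes with 2 higher and 6 lower, from the growth factor TGFB1 (-1.68) up to the chemokine CCL2 (1.17) among those above the array medians. Solute carriers, a membrane family chosen by symbol, had a median of -0.23 over 370 genes with 7 higher and 41 lower. They ranged from the taurine transporter SLC6A6 (-2.17) to SLC25A3 (1.53). The medians of all these groups stayed below 0 under every scaling tried. TMEM genes, another membrane family chosen by symbol, did not lie low. Their median was 0.06 over 211 genes, with 21 higher and 21 lower. Under quantile, loess and equal-spread scaling, the lower genes numbered 14 to 15 among secreted proteases and inhibitors and 15 to 16 among Golgi enzymes.

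Proteins that work in the ER lumen followed the same order. ER chaperones and disulfide isomerases had a median of -0.65 over 44 genes, with 13 lower and none higher, and 20 to 22 were lower under those 3 scalings. HSPA5, the major ER chaperone, had 11.90 in total RNA against 9.77 in ER-RNA, a centred difference of -0.98, and the calcium-binding chaperone CALR had -0.48. Collagen-modifying enzymes had a median of -0.80 over 12 genes, of which 5 were lower, among them the lysyl hydroxylase PLOD3 at -1.71, and the cofactor CRTAP alone was higher at 1.02. The translocation machinery itself was mixed. Its 35 genes held 8 higher and 7 lower, with a median of 0.03 that turned negative under all 4 other scalings, to as low as -0.40 after the loess correction for level. SRP14, a small protein of the signal recognition particle, had 10.32 in total RNA against 11.09 in ER-RNA, a difference of 1.92. TRAM2, a multi-spanning membrane protein of the translocon, had 11.97 and 9.10, a difference of -1.73. Within the list the small proteins SEC61B (1.71) and TMEM258 (1.83) stood at the SRP14 end and the large membrane subunits STT3A (-1.27) and RPN1 (-1.01) at the other. These 4 were picked after their values were seen. Tail-anchored proteins, which are inserted into membranes after translation, had a median of 0.68 over 44 genes with 14 higher and none lower, and the short ER protein SERP1 reached 2.02. Quantile, loess and equal-spread scaling each left 8 higher, with 1 to 2 lower.

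**Figure D2:**
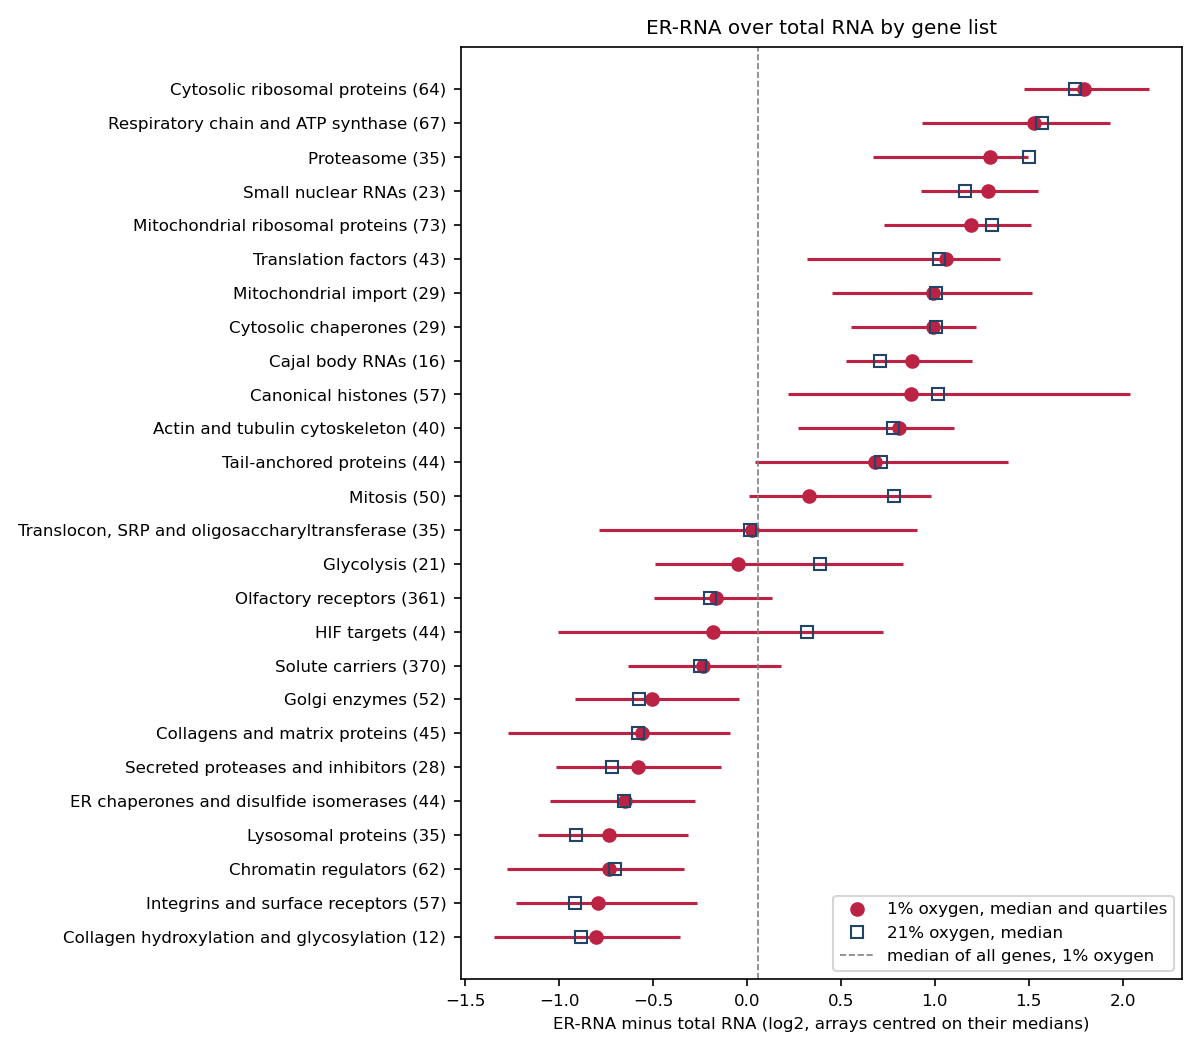
Median ER-RNA minus total RNA (log2, arrays centred on their medians) of 26 gene lists, with the number of measured genes in parentheses. Filled circles with lines give the median and quartiles at 1% oxygen and open squares the median at 21% oxygen. Ribosomal, respiratory and proteasome genes lie to the right of the median of all genes (0.06, dashed) and receptor, lysosomal and ER chaperone genes to the left.

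Genes of cytosolic machines lay high. Over the lists of the class, 286 genes had a median of 0.99, with 142 (49.7%) higher and 12 lower. These lists are bright, with median levels from 2.46 to 5.35 above the array medians. Of all genes 2 to 4 above the array medians in level 22.8% were higher, and of those more than 4 above 49.3%. Cytosolic ribosomal proteins stood highest, at a median of 1.79 over 64 genes with 57 higher and none lower, while the median of all 533 genes more than 4 above the array medians in level, where most ribosomal genes lie, was 0.99. Proteasome subunits had a median of 1.30 over 35 genes with 22 higher, from the core subunit PSMB3 (9.08 in total RNA against 10.03 in ER-RNA, a difference of 2.10) to the lid subunit PSMD11 (-0.91). Cytosolic chaperones had a median of 0.99 over 29 genes with 14 higher, and the prefoldin subunit PFDN5 led at 2.14. Translation factors had a median of 1.06 over 43 genes with 22 higher and 2 lower. Under loess correction for level their median came down to 0.32, with 5 higher and 4 lower. Both ends of that list were subunits of the same initiation complex, EIF3E with 9.97 in total RNA against 11.07 in ER-RNA (2.25) and EIF3A with 10.49 and 8.21 (-1.13). Actin and tubulin genes had a median of 0.81 over 40 genes with 12 higher and 4 lower, from the myosin light chain MYL6 (2.05) to the large adaptor TLN1 (-1.64), but their median came to 0.06 after the loess correction for level. Aminoacyl-tRNA synthetases, which charge tRNAs, stood at 0.01 over 20 genes with 1 higher, and their median was negative under the 4 other scalings. The ribosomal, proteasome, chaperone and translation factor medians stayed above 0 under every scaling, although that of the ribosomal proteins came down to 0.80. After loess correction 25 ribosomal, 12 proteasome, 6 chaperone and 4 actin and tubulin genes counted as higher.

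Nuclear-encoded mitochondrial proteins were also high. The class held 186 genes with a median of 1.18, of which 106 (57.0%) were higher and 2 lower. Respiratory chain and ATP synthase genes had a median of 1.53 over 67 genes with 48 higher and 1 lower, and COX7B led them. SDHA, the large flavoprotein of succinate dehydrogenase, lay at the other end among genes above the array medians, with 10.80 in total RNA against 8.92 in ER-RNA, a difference of -0.73. Mitochondrial ribosomal proteins had a median of 1.19 over 73 genes, of which 41 were higher and none lower, and MRPL11 reached 2.39. Import components had a median of 0.99 over 29 genes with 14 higher, led by DNAJC19, a cochaperone of the import motor (1.83). Enzymes of the TCA cycle stood lower, at 0.45 over 20 genes with 4 higher and 1 lower, from SUCLG1, a subunit of succinyl-CoA ligase (1.35), to OGDH, a subunit of the oxoglutarate dehydrogenase (-1.22). The 4 medians stayed above 0 under every scaling, although that of the TCA cycle came to 0.09 after loess correction for level, which left 27 mitochondrial ribosomal genes higher.

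**Figure D3:**
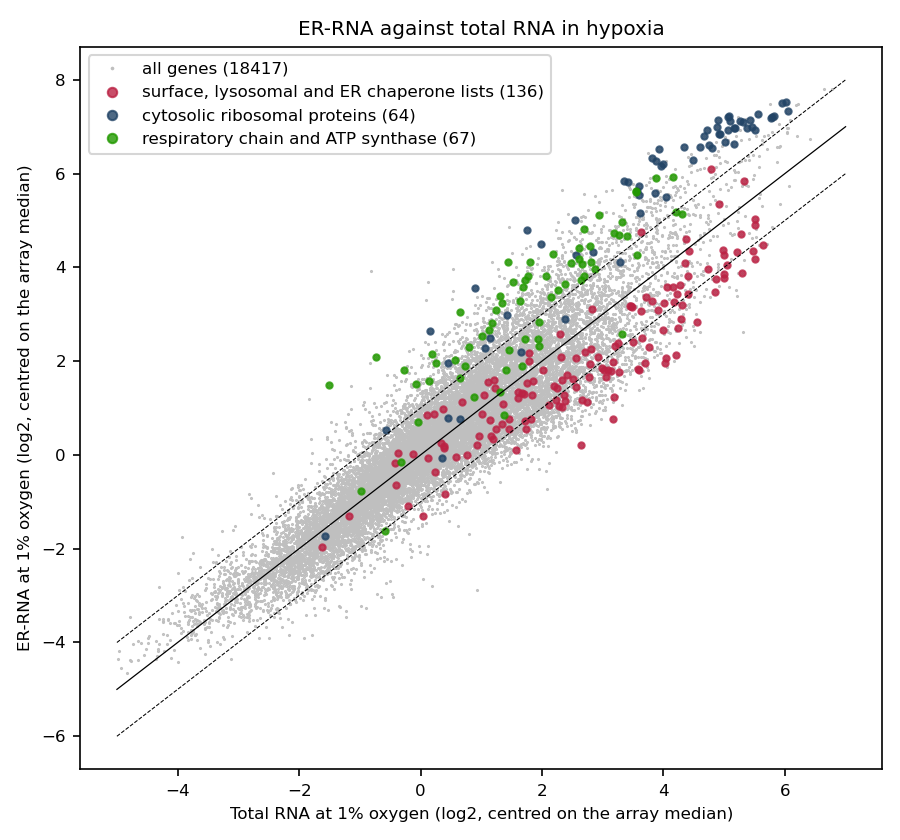
ER-RNA against total RNA at 1% oxygen for 18417 genes, both as log2 centred on the array median, with 1 pooled array per axis. The solid line marks equal centred values and the dashed lines 2-fold. Ribosomal protein and respiratory genes run along or above the upper dashed line, and genes of surface receptors, lysosomal proteins and ER chaperones mostly below the solid line.

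Among nuclear functions, chromatin regulators lay low and histones high. The 62 chromatin regulators had a median of -0.74, with 21 lower and none higher, from HDAC2, a histone deacetylase (0.82), to KDM2A. Canonical histones, whose mRNAs lack a poly(A) tail, had a median of 0.87 over 57 genes with 28 higher and none lower. For the 34 histone genes above the array medians the median was 1.83. Mitotic genes had a median of 0.33 over 50 genes with 12 higher and none lower, and CDK1, the mitotic kinase, had 6.63 in total RNA against 7.26 in ER-RNA, a difference of 1.78. DNA replication genes had a median of 0.22 over 47 genes with 7 higher and 1 lower. Nuclear pore genes had a median of -0.32 over 48 genes with 3 in each direction, from the import factor NUTF2 (1.39) to the large nucleoporin NUP214 (-1.76). Splicing factors and ribosome biogenesis genes had medians of 0.08 and 0.11, near that of all genes, and both turned negative under 3 scalings. Within splicing factors SNRPG, a small ring protein of the spliceosome, had 2.37, and PRPF8, its largest protein, -1.52.

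Small noncoding RNAs differed by family. The 23 small nuclear RNAs of the spliceosome had a median of 1.29 with 17 higher and 1 lower, and the 1 lower, the U1 variant RNVU1-4, was the lowest gene of all at -3.80 although its level was below the array medians. RNU5E-1, a copy of the U5 RNA, had 12.34 in total RNA against 12.32 in ER-RNA, a centred difference of 1.13. The 16 Cajal body RNAs, which guide modification of small nuclear RNAs, had a median of 0.88 with 6 higher and none lower. Of a list of 6 vault, Y and RNase RNAs, 5 were higher and 1 was lower, with a median of 1.85. The lower one was RNY1, a Y RNA, at -1.51 and below the array medians in level. RPPH1, the RNA of ribonuclease P, had 10.63 and 11.99 (2.50), and RMRP, the RNA of a related enzyme, 12.44 and 12.94 (1.64). Box C/D small nucleolar RNAs spread widely, with a median of 0.27, 29 higher and 8 lower of 115. Box H/ACA RNAs had 1 higher and 8 lower of 61, with a median of 0.06 that was negative under 4 scalings. Of 4 measured nuclear long noncoding RNAs, MALAT1, a nuclear speckle RNA, had 12.71 in total RNA against 9.73 in ER-RNA (-1.83), TUG1 had 11.81 and 9.64 (-1.02), and MEG3 and JPX, both below the array medians in level, had -0.41 and 0.31.

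The difference also ran with the level and the size of the gene, which moved together with the groups above. The median difference was -0.07 for genes more than 2 below the array medians, 0.24 for genes 2 to 4 above them and 0.99 for genes more than 4 above. The share of higher genes was 1.65% in the lowest of these ranges and 49.3% in the highest. In protein-coding genes above the array medians, the difference correlated with the genomic span of the gene in RefSeq (GRCh38.p14) at a Spearman coefficient of -0.396 across 10765 genes, which are not independent replicates and share the 2 arrays. Genes under 5 kb had a median of 0.57, with 27.9% higher and 0.63% lower, and genes over 100 kb a median of -0.40, with 3.76% higher and 19.7% lower. Chromatin regulators, with a median span of 80.4 kb, and ribosomal proteins, with 5.22 kb, stood near the ends of this scale. The order of secretory and cytosolic genes was present within each span range, where level was not matched. The range under 5 kb held only 17 secretory genes. In genes of 5 to 20 kb the 71 secretory genes had a median of -0.54 and the 103 cytosolic genes 1.20, and in genes over 100 kb the medians were -1.0 over 61 genes and -0.19 over 17. After a loess correction for span, the medians were -0.79 for integrins and surface receptors and 1.51 for cytosolic ribosomal proteins. The part of gene span in the list differences was not tested.

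**Figure D4:**
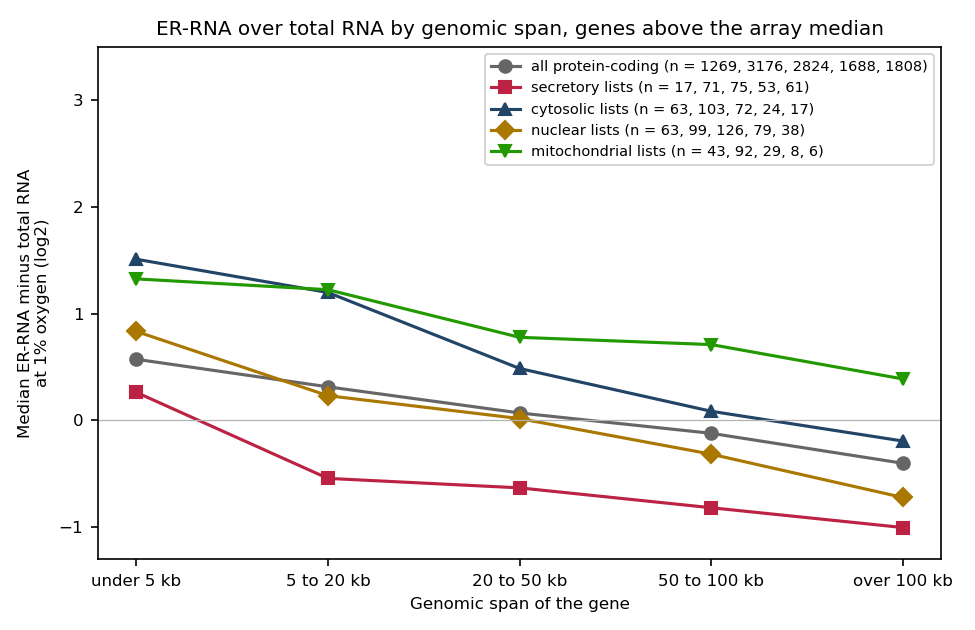
Median ER-RNA minus total RNA at 1% oxygen (log2) against the genomic span of the gene, for genes above the array medians. Lines give all protein-coding genes and 4 classes of gene lists, with the number of genes in each range in the key. Every line falls from short to long genes, and the secretory line stays below the cytosolic line in all 5 ranges.

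A set of 13 genes, most of them named by the study as genes it followed, as sources of sequence elements or as protein markers of the fractions, was spread over the scale. Some of them come from its array results. LRP1, a large endocytic receptor, had 11.51 in total RNA against 8.31 in ER-RNA, a centred difference of -2.06. HK2, the hexokinase of the mitochondrial surface, had 11.59 and 8.93 (-1.51), and P4HA1, the subunit that hydroxylates prolines of collagen, 11.57 and 9.18 (-1.24). With BLID these were the 4 genes of the set that counted as lower. This measure compares the fractions within hypoxia, whereas the study compared ER-RNA of hypoxic cells with that of control cells. ER-RNA values in control and hypoxic cells were 7.99 and 9.18 for P4HA1, 8.05 and 8.93 for HK2, and 7.67 and 8.31 for LRP1. For BLID they were 5.80 and 5.61. ER-RNA of P4HA1, HK2 and LRP1 was thus higher in hypoxia, and that of BLID slightly lower. The study places HIF1A among transcripts raised both in total RNA and at the ER. Here HIF1A had ER-RNA values of 11.69 in control and 11.12 in hypoxic cells, and total RNA values of 12.14 and 11.91. For VEGFA the ER-RNA values were 10.22 and 10.60. Within hypoxia VEGFA, the angiogenic growth factor, had 12.50 in total RNA against 10.60 in ER-RNA (-0.75). P4HB, the disulfide isomerase that marks the ER, had 13.00 and 11.25 (-0.60), and the lysyl hydroxylase PLOD2 13.11 and 11.66 (-0.30). Under quantile, loess and equal-spread scaling VEGFA lay between -1.57 and -1.28, P4HB between -1.57 and -1.20 and PLOD2 between -1.34 and -0.93, and 6 to 7 of the 13 counted as lower. CCL2 had 8.54 and 8.56 (1.17) and counted as higher. GAPDH, a cytosolic glycolytic enzyme, had 14.13 and 14.14 (1.15), although its difference ranged from -0.35 to 0.33 under quantile, loess and equal-spread scaling. ACTB, the cytoskeletal actin, had 13.40 and 12.93 (0.68) and HIF1A, the oxygen-regulated HIF subunit, 11.91 and 11.12 (0.35), and both were negative under those 3 scalings. EGLN3, the HIF prolyl hydroxylase, had 9.15 and 8.45 (0.44), and the oxidase AOX1 7.89 and 7.25 (0.51). On this scale the mRNA of P4HB lay below those of GAPDH and ACTB. The study used the proteins of these genes, not their mRNAs, as markers of the ER and the cytosol.

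Targets of HIF had a larger share of lower genes than all genes had, on the reported scale. The 44 genes had a median of -0.18, with 6 higher (13.6%) and 12 lower (27.3%). Among all genes above the array medians, where 43 of the 44 lay, the shares were 13.7% higher and 8.42% lower. That set is not matched in level. The median level of the HIF targets was 2.63, and among genes 2 to 4 above the array medians 22.8% were higher and 12.6% lower. Quantile, loess and equal-spread scaling gave medians of -0.56 to -0.47, with 1 to 2 higher and 14 to 16 lower. Higher on the reported scale were BNIP3L (12.53 in total RNA against 13.00 in ER-RNA, a difference of 1.62), BNIP3 (1.49) and FAM162A (1.57), which act at mitochondria, the lipid droplet gene HILPDA (1.22), ANKRD37 (1.25) and the HIF prolyl hydroxylase EGLN1 (1.11). Lower were the glucose transporters SLC2A1 (13.19 and 10.84, a difference of -1.20) and SLC2A3 (-1.32), the collagen prolyl hydroxylases P4HA1 and P4HA2 (-1.46), the matrix oxidase LOXL2 (-1.18), the secreted STC2 (-1.35), the ER oxidase ERO1A (-1.12) and the receptor VLDLR (-1.02). HK2, PPFIA4 (-1.21) and the regulators of glycolytic flux PFKFB3 (-1.01) and PFKFB4 (-1.0) completed the 12. These genes are named because they passed 2-fold, after their values were seen. Glycolytic enzymes had a median of -0.05 over 21 genes with 4 higher and 3 lower, from the lactate dehydrogenase LDHB (1.41) to HK2, whereas those 3 scalings gave medians of -0.46 to -0.31 with none higher and 4 to 7 lower.

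Most of the order at 1% oxygen was also found at 21% oxygen, a pair that shares no array with the hypoxia pair. Across 18417 genes the differences at the 2 oxygen levels had a Pearson correlation of 0.907 and a Spearman correlation of 0.888, as a description of these arrays. At 21% oxygen 1935 genes (10.5%) were higher and 1262 (6.85%) lower. The 1399 genes higher at both were 82.7% of those at 1% oxygen and 72.3% of those at 21%, and the 825 genes lower at both were 67.8% and 65.4%. Only IMMP1L, a mitochondrial inner membrane peptidase, was lower at 1% oxygen (-1.10) and higher at 21% (1.29), with a level below the array medians. Of all 18417 genes, 9024 were lower at 1% than at 21% oxygen, as were 52.0% of those above the array medians. Secretory lists had medians of like size at both, although more of their genes stood higher at 1% than lower, as in integrins and surface receptors (-0.79 and -0.91, with 36 of 57 higher at 1%), lysosomal proteins (-0.73 and -0.91, with 27 of 35) and collagens and matrix proteins (-0.56 and -0.58, with 32 of 45). Other lists stood lower at 1% oxygen. HIF targets had a median of 0.32 at 21% oxygen, and 33 of 44 genes were lower at 1% than at 21%. A lower ratio does not mean less ER-RNA. HK2, the lowest of that list at 1% oxygen, had ER-RNA values of 8.93 at 1% and 8.05 at 21%, and total RNA values of 11.59 and 9.72. How many other HIF targets did so was not counted. For mitotic genes the medians were 0.33 at 1% and 0.78 at 21%, with 41 of 50 lower at 1%, and for nuclear pore genes they were -0.32 and 0.06, with 39 of 48 lower at 1%. Glycolytic genes had 0.39 at 21% oxygen, and 18 of 21 were lower at 1%.

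Single genes rarely departed by 2-fold between the oxygen levels. In 48 genes (0.261%) the difference at 1% oxygen exceeded that at 21% by at least 1, and in 61 (0.331%) it fell short by at least 1. SLC7A2, a cationic amino acid transporter, had -0.66 at 1% oxygen and -2.0 at 21%, and its total RNA value was 7.48 at 1% and 9.37 at 21%. PFAS, an enzyme of purine synthesis, had -0.24 and -1.35, and the noncoding gene FAM230B 1.17 and 0.06. The other 3 of the 6 largest upward departures were the small nucleolar RNAs SNORD58A (3.43 and 2.11), SNORD116-23 (2.22 and 0.90) and SNORD41 (0.74 and -0.38), of which SNORD41 changed sign under 2 of the 3 scalings. Downward, NDNF had -2.24 at 1% oxygen and -0.66 at 21%. Its total RNA value was 9.43 at 1% and 6.97 at 21%, while its ER-RNA value was 6.04 and 5.15. The departures of BLID (-2.80 and -1.39) and DNHD1 (-2.28 and -0.89) came with total RNA values that were higher and ER-RNA values that were lower at 1% oxygen. N4BP2L2 had -0.36 and 1.02.

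**Figure D5:**
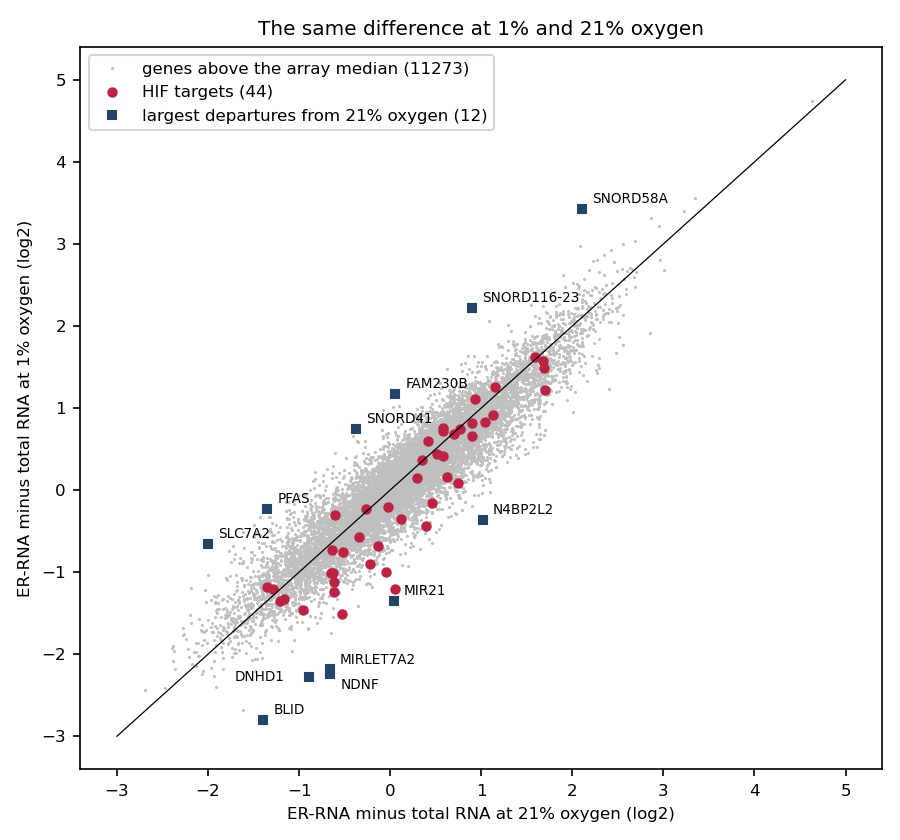
ER-RNA minus total RNA (log2) at 1% oxygen against the same difference at 21% oxygen for 11273 genes above the array medians (grey), with 44 HIF targets (circles) and the 12 genes that depart most in either direction (squares). The line marks equal differences. Of the HIF targets 33 of 44 lie below it, against 52.0% of the grey genes.

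A pair of microRNA genes stood among the 6 largest downward departures. Their mature sequences, from RefSeq (GRCh38.p14), are shown because these short RNAs are the products of the loci, with the seed (bases 2 to 8), which pairs with target mRNAs, in capitals.
hsa-miR-21-5p: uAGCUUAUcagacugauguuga
hsa-let-7a-5p: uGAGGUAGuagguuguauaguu
hsa-let-7a-2-3p: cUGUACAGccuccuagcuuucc
The first lies at chr17:59841273-59841294 on the plus strand, and the let-7a products at chr11:122146568-122146589 and chr11:122146523-122146544 on the minus strand. The 3 seeds differ. MIR21 had 8.60 in total RNA against 6.10 in ER-RNA at 1% oxygen (-1.35), against 7.50 and 6.39 at 21% (0.04). MIRLET7A2 had 9.72 and 6.4 at 1% oxygen (-2.18), against 8.34 and 6.52 at 21% (-0.66). Both were thus brighter in total RNA at 1% oxygen than at 21%, and slightly dimmer in ER-RNA. On the ER-RNA array at 1% oxygen MIR21 lay below the array median, at a centred value of -0.24, and MIRLET7A2 close to it at 0.06. Small changes of such dim signals on single arrays are uncertain. MIR21 overlaps VMP1 in RefSeq, a membrane protein gene of autophagy, and VMP1 had -0.16 at 1% oxygen and -0.03 at 21%. MIRLET7A2 and BLID both lie within the noncoding host gene MIR100HG. Array probes for such genes may read the primary transcript as well as the short products. Over all 173 microRNA genes the median was 0.12 at either oxygen level, with 6 higher and 16 lower at 1%, and 29 of them had a level above the array medians.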

How the data were processed

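RNA of HT1080 cells was measured on Affymetrix Human Gene 1.0 ST arrays after random-primed labelling. RMA normalization was done by the authors, who deposited log2 values (Partek 6.4 and RMA in the submitters' processing notes). No source used here says if all 4 arrays were normalized together. Each array was centred on its median over all probe sets. Gene names came from the platform annotation, and 19429 of 19460 single-gene probe sets matched RefSeq by gene ID. Each gene took its brightest probe set by mean over all 4 arrays, and its level is the mean of the 4 centred values. With 1 array per group no test was run, and precision is limited by the number of arrays. The 50 gene lists, 34 written by hand and 16 by symbol, and the genes compared were chosen with earlier results of these data known. Named by rule were the 12 highest and 12 lowest genes above level 0, the extreme members of each list above that level, a set of 13 genes mostly named by the study and the 6 largest departures from 21% oxygen in each direction. One gene withheld from this work is not reported here. The calculation was tested on simulated data and run in Python 3.11.15 with pandas 2.3.3, scipy 1.17.1 and statsmodels 0.14.6 (loess span 0.4). Alternatives covered centring, scaling, probe set per gene, level filter, shared values, fold and counting unit, with loess corrections for gene span and for level over genes added after seeing the data. Classes by protein hydropathy were planned but not run, since protein sequences were not used here.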

Additional observations from a re-analysis of the deposited data

Results flagged for a closer look

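The following values differ in sign between 1% and 21% oxygen, and with 1 array per group none of these differences was tested. SNORD41, a box C/D small nucleolar RNA, had an ER-RNA minus total RNA difference of 0.74 at 1% oxygen and -0.38 at 21%. MIR21 had -1.35 at 1% and 0.04 at 21%. N4BP2L2 had -0.36 at 1% and 1.02 at 21%. The median of the glycolytic genes was -0.05 at 1% and 0.39 at 21%, that of the nuclear pore genes -0.32 and 0.06, and that of the HIF targets -0.18 and 0.32.

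Outside the named genes, 4203 unnamed probe sets are numbered before the first named one. At 1% oxygen 13.9% of them were at least 2-fold higher in ER-RNA and 33.0% at least 2-fold lower, with a median of -0.38. In the other 7880 unnamed probe sets the shares were 13.2% and 9.05%. No source used here says what the early-numbered probe sets measure.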

How the results depend on the processing

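The count of higher genes (1692) ranged from 1162 to 1851 and that of lower genes (1216) from 949 to 1565 under changes of centring, scaling, level filter and counting unit, but at 1.4-fold they were 4464 and 3769. Of 400 list shares above the median gene under 8 alternatives, 374 stayed within the exact (Clopper-Pearson) 95% interval of the reported share, a measure of counting error alone, 26 moved out of it and none crossed to the other side from an interval clear of 50%. The interval is wide for short lists, so a share inside it can still have moved far. Cholesterol genes went from 50% to 30% with equal spread and stayed within. After quantile normalization and after loess against level alike, the share was 60.5% for translation factors, 52.5% for actin and tubulin, 42.1% for immediate early genes (also with equal spread), 27.3% for HIF targets, 20% for cholesterol genes and 19% for glycolysis. COPI and COPII coats had 25% after loess against level. With genes above level 0 alone, the share was 97.1% for canonical histones, 100% for small nuclear RNAs and for the group of vault, Y and RNase RNAs, 73.6% for box C/D RNAs, 48.2% for ZNF genes and 0.00% for nuclear long noncoding RNAs. Olfactory receptors had 47.4% after quantile normalization, 42.7% after loess against level, 47.6% with equal spread, 50.0% above level 0 and 18.0% after loess against span, which also put microRNA genes at 45.7%. The cause of these moves was not tested. Hydropathy classes and their threshold were not run. No paired analysis was possible because each group holds 1 pooled array. Signal near background limits genes below the array medians.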

Other observations

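Some groups outside the main account had values of their own. Metallothioneins, small metal-binding proteins with near-identical copies, had a median difference of 0.88 over 10 genes at 1% oxygen, with 5 at least 2-fold higher in ER-RNA and 1 lower. MT1G had log2 values of 11.23 (total RNA) and 12.78 (ER-RNA), a centred difference of 2.70, and MT1B 8.94 and 6.78, a difference of -1.02. Genes of cholesterol synthesis and uptake had a median of 0.08 over 20 genes that was negative under 3 other scalings. Within them IDI1, a cytosolic or peroxisomal isomerase, had 11.20 and 11.75 (1.70), and SREBF2, the membrane-bound regulator of the pathway, 11.30 and 8.81 (-1.34). DEAD and DEAH box helicases had a median of -0.21 over 50 genes, with 2 higher and 1 lower. Short-lived mRNAs of immediate early genes had 0.25 over 38 genes with 4 higher and 1 lower, and their median was negative under 3 other scalings.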
